A study of Mus musculus with 10 samples.

Results

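The interferon-induced p200 genes (also called HIN-200 or PYHIN genes) were examined in 5 exercise and 5 non-exercise arrays of mouse melanoma tumours. Members were the probe sets whose single gene symbol in the platform table was Ifi203, Ifi204, Ifi205, Mnda, Pyhin1 or Aim2. These genes were selected on their log2 differences between the exercise and non-exercise arrays in earlier results of the same data. The rule found 3 probe sets, 1 each for Ifi203 (10360391), Ifi205 (10360406) and Aim2 (10351867), of 35556 probe sets and 19938 genes in all. Ifi204 appears in the platform table only together with Ifi211, on probe set 10360382. Mnda and Pyhin1 are not symbols of that table, and RefSeq lists them as synonyms of Ifi211 and of Ifi209. Of the p200 genes whose symbol in the platform table is not in the rule, 7 had a probe set of their own, Ifi209 among them.

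The samples were tumours of male mice labelled Exercise or non-Exercise, with 1 whole-transcript Affymetrix array per sample. The series title names voluntary exercise, tumour growth and natural killer cells. The sources used here do not give the strain, age or genotype of the mice, the melanoma line or the length of the exercise. Arrays 300, 301, 306, 309 and 310 are the exercise group, and arrays 326, 327, 329, 330 and 331 the other. Levels are log2 values after quantile normalization. A difference is the exercise mean less the non-exercise mean on that scale, with the standard error (SE) of the fit after ±. The labels do not say that each array number is a different animal, so SEs and p-values cover only the spread among these 10 samples.

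The p200 genes lie side by side on mouse chromosome 1 and encode proteins with a HIN domain, which binds DNA, usually joined to a pyrin domain, which binds other pyrin domains. Many of them are induced by interferon, in macrophages among other cells. Aim2, the best described, binds double-stranded DNA in the cytosol and recruits the adaptor Pycard (ASC) and caspase-1 into an inflammasome, which cleaves interleukin-1 beta, interleukin-18 and gasdermin D. Ifi204 has been described as a DNA sensor that signals through Sting1. Ifi202b has HIN domains but no pyrin domain and can hold Aim2 back.

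Start-site sequences are shown first because 2 of the 3 members share a stretch there with most of their relatives. RefSeq promoter windows (GRCm38.p6), 250 bases before to 50 bases after each start, were found for 12 of the 13 p200 genes and for all 3 members. The core letters of an interferon-stimulated response element (ISRE), GAAA, any 2 bases and GAAA again, were searched on both strands. They occurred on the gene's own strand in 9 of these 12 genes. Over all 27025 genes with a window, 3.99% held them on either strand. Capitals mark the match in these windows of 50 bases.
Ifi205, chr1:174031860-174031909, minus strand: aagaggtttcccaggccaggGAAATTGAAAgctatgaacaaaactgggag
Ifi203, chr1:173942498-173942547, minus strand: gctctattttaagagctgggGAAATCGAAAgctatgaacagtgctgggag
Ifi211, chr1:173913054-173913103, minus strand: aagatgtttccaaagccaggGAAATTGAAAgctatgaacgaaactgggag
Ifi207, chr1:173741821-173741870, minus strand: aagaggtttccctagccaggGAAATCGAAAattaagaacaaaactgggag
Ifi213, chr1:173599316-173599365, minus strand: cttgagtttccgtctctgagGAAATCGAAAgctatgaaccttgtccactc
The middle letters were TC in 7 of the 9 genes and TT in Ifi205 and Ifi211. The Ifi205 window shared 46 of 50 bases with that of Ifi211, 44 with Ifi207, 33 with Ifi203 and 26 with Ifi213. The Ifi203 window was identical to that of the p200 gene Mndal, and the Ifi213 window to that of Ifi208. The 9 genes are therefore not independent of each other, and their count beside the 3.99% is a description only. The match began 134 bases before the start in Ifi205 and 35 bases before the second of 2 starts in Ifi203, whose first window held no match. Ifi205 held another match, on the opposite strand, inside the first 50 transcribed bases.

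Aim2, the third member, had no match to the ISRE letters in its window, and neither had Ifi202b or Ifi209. Each of the 3 had a place 1 base away from the searched letters, Ifi209 at 4 places. How many of all genes hold such a place was not counted, so it does not set these genes apart. At the one shown here, in capitals, the substitution was G1T, counted from the 5′ end of the searched letters.
Ifi209, chr1:173630760-173630809, plus strand: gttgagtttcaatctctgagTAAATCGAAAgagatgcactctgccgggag
Of the other letters searched in the Aim2 window, only GAGGAA, found in sites of the macrophage and B cell factor PU.1, occurred. The capitals mark its 2 places.
Aim2, chr1:173420444-173420516, plus strand: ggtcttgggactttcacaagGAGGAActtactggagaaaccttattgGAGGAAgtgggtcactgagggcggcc
That short word is common, present in 5 of the 12 p200 genes and in 31.3% of all genes with a window. In Ifi206, Ifi214, Ifi213 and Ifi208 it overlapped the match to the ISRE letters. The NF-kB letters, GGG, any 2 bases and TTTCC, were in none of the 12 p200 genes and in 1.89% of all genes. TGANTCA (AP-1) was in 3 of the 12 and in 8.97% of all, and TTCNNNGAA (GAS) in 1 and in 9.55%. A match describes letters only and shows no binding.

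Ifi205 had the largest difference of the 3 members. Its level was 9.92, 9.50, 9.48, 10.58 and 11.08 in exercise arrays 300, 301, 306, 309 and 310. In non-exercise arrays 326, 327, 329, 330 and 331 it was 8.55, 8.87, 8.76, 7.79 and 8.31. The groups did not overlap, and arrays 309 and 310 were the highest. The means were 10.11 ± 0.70 and 8.46 ± 0.43 (SD, n = 5 each), a log2 difference of 1.65 ± 0.28, or 3.15-fold.

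Ifi203, another nuclear p200 protein gene, split the exercise group. It was 9.39, 9.02, 10.56, 10.59 and 10.67 in exercise arrays 300, 301, 306, 309 and 310, and 9.31, 8.66, 8.60, 8.34 and 8.21 in non-exercise arrays 326, 327, 329, 330 and 331. The last 3 exercise arrays stood together more than 1 log2 unit above every other array. Array 300 was just above the highest non-exercise array, 326, and array 301 below it, so the groups overlapped. The means were 10.04 ± 0.78 and 8.62 ± 0.43 (SD, n = 5 each), a log2 difference of 1.42 ± 0.30, or 2.68-fold.

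Aim2, the inflammasome sensor, had the smallest difference. Its level was 8.36, 7.73, 8.26, 8.52 and 8.87 in exercise arrays 300, 301, 306, 309 and 310, and 7.61, 8.04, 7.85, 7.50 and 7.50 in non-exercise arrays 326, 327, 329, 330 and 331. Exercise array 301 lay among the non-exercise arrays and the other 4 above them all. The means were 8.35 ± 0.42 and 7.70 ± 0.24 (SD, n = 5 each), a log2 difference of 0.65 ± 0.17, or 1.57-fold. Aim2 did not pass the threshold without non-exercise array 326 (0.63) or 330 (0.60). Aim2 was at percentile 26.5 of mean level among the genes measured.

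Probe set 10360382, listed for both Ifi204 and Ifi211, cannot be assigned to either gene and is no member by the rule. Its level ran from 11.14 to 12.48 in the exercise arrays, with a median of 11.60, and from 9.76 to 10.47 in the non-exercise arrays, with a median of 10.21. The groups did not overlap, and the log2 difference was 1.69 ± 0.21. Array 301 was again the lowest exercise array and array 310 the highest.

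**Figure D1:**
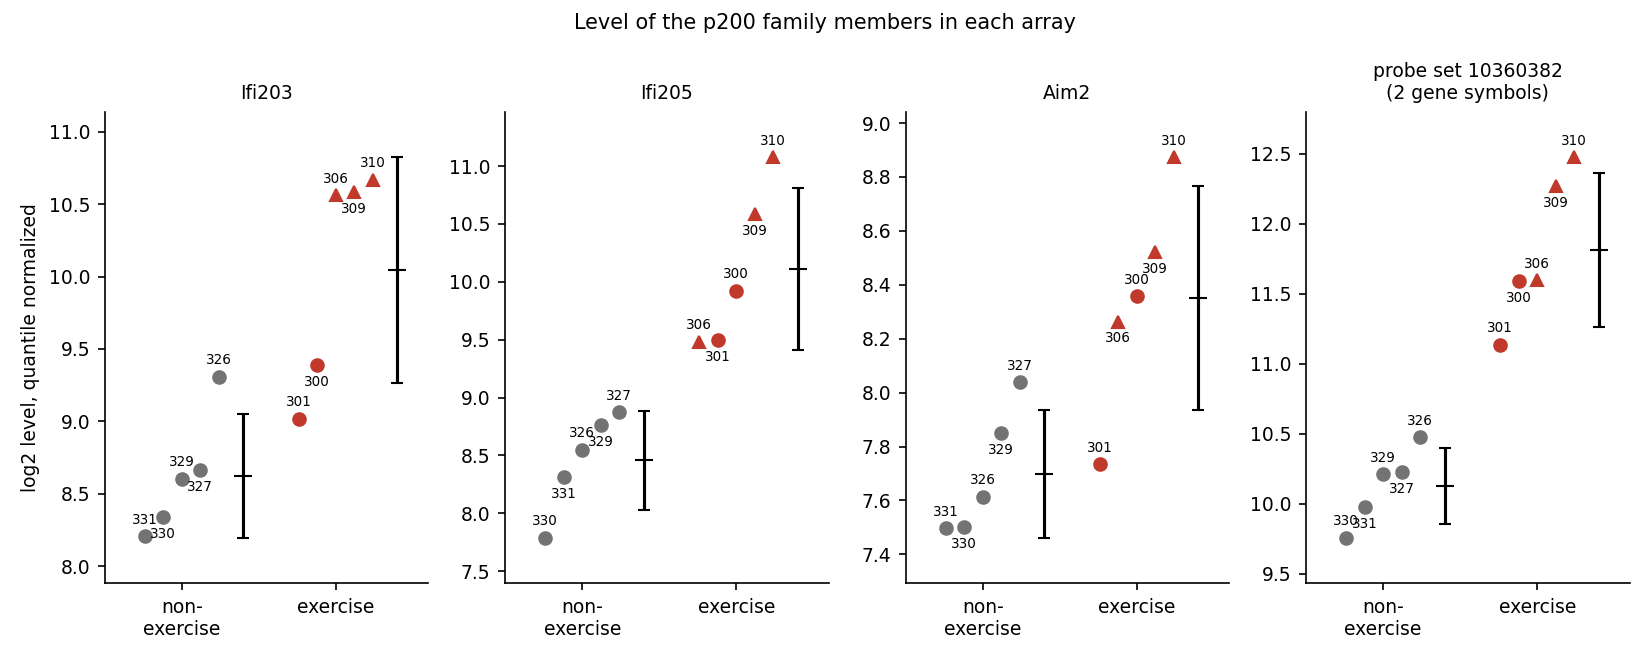
Log2 level of Ifi203, Ifi205, Aim2 and the probe set with 2 gene symbols (vertical axis) in each array by group, with the array number at each point, triangles for exercise arrays 306, 309 and 310, and bars for the mean and SD (n = 5). The groups are apart for Ifi205 and for the shared probe set, while exercise array 301 reaches into the non-exercise range for Ifi203 and Aim2.

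All 3 members were higher at a limma adjusted p under 0.05, as were 6.35% of all genes, out of 17.0% called in either direction. The groups did not overlap for 1 of the 3. Over all genes the exercise group lay wholly above the other in 3.74% and wholly below it in 8.33%. The members were chosen with this comparison known, so these counts describe the choice and no p-value is given for a member.

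Exercise arrays 306, 309 and 310, which were the 3 highest for Ifi203 but not for Ifi205 or Aim2, were the highest for hepatocyte markers. The mean log2 level of 19 hepatocyte markers was 8.97 to 9.56 in these 3 arrays, 7.43 in arrays 300 and 301, and 7.47 to 7.71 in the non-exercise arrays. Without these arrays, leaving 2 exercise arrays against 5, the log2 difference was 1.25 ± 0.23 for Ifi205, 0.58 ± 0.23 for Ifi203 and 0.35 ± 0.18 for Aim2. Ifi205 then still passed the threshold, and Ifi203 and Aim2 did not, with 3.74% of all genes higher and 8.06% lower. With the mean of the hepatocyte markers as a covariate the differences were 1.40 for Ifi205, 0.75 for Ifi203 and 0.44 for Aim2, and again only Ifi205 of the 3 passed, with 2.95% of all genes higher. The same 3 arrays also had the highest means of the T cell markers and of the interferon receptor and JAK-STAT genes described below. The mean of the latter was 10.59 to 10.79 in these arrays and 10.25 to 10.27 in arrays 300 and 301. In the non-exercise arrays it was 10.12 to 10.36. Leaving the 3 arrays out therefore does not remove hepatocyte transcripts alone. The part of the hepatocyte transcripts in the differences of the members was not tested further.

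Macrophage markers moved with the members. Of 15 measured, 12 rose and none fell, and their mean log2 level was 9.58 to 10.78 in the exercise and 9.05 to 9.60 in the non-exercise arrays. The arrays highest and second highest in the mean of the 3 members, 310 and 309, were also the highest and second highest for the macrophage markers, and array 330 was the lowest for both. With the macrophage mean as a covariate the differences were 0.43 ± 0.22 for Ifi205, 0.55 ± 0.40 for Ifi203 and -0.0701 ± 0.16 for Aim2, and none of the 3 passed. Over all genes 0.206% were then called higher. Of the macrophage markers Cd163, a scavenger receptor of some macrophages, was the dimmest, at percentile 6.24 of mean level. In whole tumours, more cells of a type and more RNA per cell cannot be told apart.

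**Figure D2:**
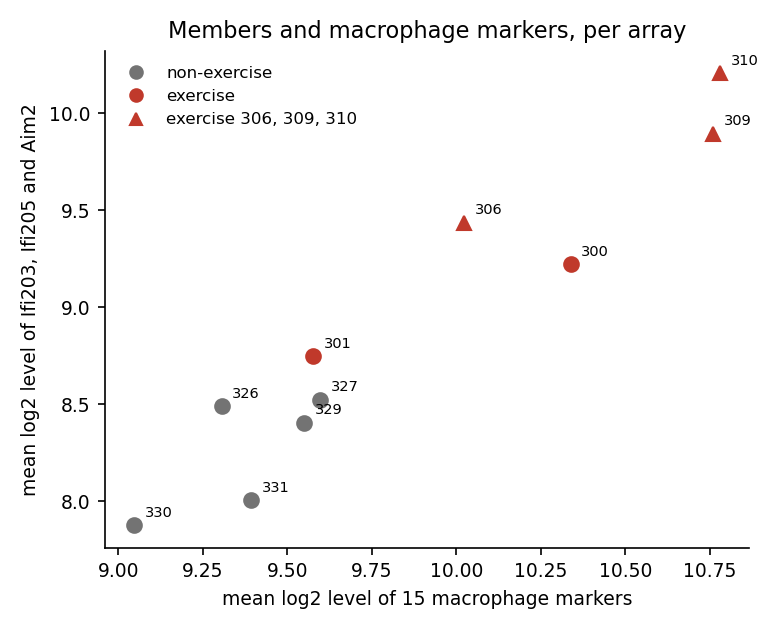
Mean log2 level of Ifi203, Ifi205 and Aim2 (vertical axis) against the mean log2 level of 15 macrophage markers (horizontal axis), 1 point per array, with triangles for exercise arrays 306, 309 and 310. Array 330 is lowest and array 310 highest on both axes, and exercise array 301 lies beside non-exercise arrays 327 and 329 on the macrophage axis.

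Other marker lists gave the makeup of the tumours. The 10 melanocyte markers were bright in every array (mean log2 level 12.66 to 12.85), and none passed the test. Of the fibroblast markers 6 of 8 rose, of the neutrophil markers 3 of 8, of the dendritic cell and NK cell markers 2 of 8 and 2 of 9, of the B cell and adipocyte markers 1 of 7 and 1 of 9, and none fell. Of the endothelial markers 1 of 8 rose and 1 fell, and no T cell, keratinocyte or muscle marker passed among 8, 9 and 10. The mean log2 level of the T cell markers was nevertheless 8.15 to 8.18 in exercise arrays 306, 309 and 310. In exercise arrays 300 and 301 the T cell mean was 7.53 to 7.61, and in the non-exercise arrays 7.54 to 7.76. Over all genes 6.35% were higher and 10.6% lower. The higher markers without arrays 306, 309 and 310 numbered 7 for macrophages, 3 for fibroblasts, 5 for neutrophils, 0 for dendritic and NK cells and for adipocytes, and 1 for B cells, and 2 melanocyte markers were lower. The fibroblast mean was 10.14 to 11.43 in the exercise and 9.55 to 10.33 in the non-exercise arrays. The part of these cells in the differences of the members was not tested.

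Among the 7 p200 genes whose platform symbol is not in the rule, 2 rose and none fell, against 6.35% higher and 10.6% lower over all genes. All 7 differences were positive, with a median of 0.54 against -0.02 over all genes. Ifi207, a long p200 family member, was 10.93, 10.33, 10.86, 11.73 and 11.95 in exercise arrays 300, 301, 306, 309 and 310 and 9.91, 10.03, 9.98, 9.26 and 9.69 in the non-exercise arrays in order of their number. The groups did not overlap, and Ifi207 rose by 1.38 ± 0.25 (limma adjusted p = 0.00229). Ifi209, the gene with Pyhin1 among its synonyms, was 8.54, 7.85, 8.10, 9.06 and 9.41 in the exercise arrays and 7.57, 7.37, 7.43, 7.19 and 7.17 in the non-exercise arrays, in the same order. It rose by 1.25 ± 0.24, again with no overlap. Since Pyhin1 is a name in the rule, the call of Ifi209 may describe the choice, and no p-value is given for it. Without arrays 306, 309 and 310 Ifi207 had a difference of 0.85 (limma adjusted p = 0.0124) and Ifi209 of 0.85, and both still passed. With the macrophage covariate neither passed, and 4 of the 7 differences turned negative, those of Ifi206 (-0.20), Ifi213 (-0.29), Ifi208 (-0.072) and Ifi214 (-0.042).

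The other 5 did not pass. Ifi213 had a difference of 0.67 ± 0.24 (limma adjusted p = 0.0668) and Ifi206 of 0.54 ± 0.19 (limma adjusted p = 0.0657), each with 4 of 5 exercise arrays above all non-exercise arrays. Both passed on the table as deposited and without array 301, which made the count of higher p200 genes 4, and Ifi206 also without array 306. Ifi208 and Ifi214 each had a difference of 0.28, and Ifi202b, the inhibitor of Aim2, of 0.10 ± 0.09 (limma adjusted p = 0.561). Ifi202b lay between 7.48 and 7.74 in the exercise arrays and between 7.37 and 7.76 in the non-exercise arrays. Ifi208 and Ifi214 were at percentiles 6.14 and 2.77 of mean level among the genes measured. Probe sequences were not used here, and cross-hybridization between these close relatives was not tested.

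In order of their differences the 10 measured p200 genes ran from Ifi205 over Ifi203, Ifi207 and Ifi209 to Ifi213, Aim2 and Ifi206, then Ifi208, Ifi214 and Ifi202b. Neighbours in the first 4 were closer to each other than their SEs. So were Ifi213, Aim2 and Ifi206, with 0.67, 0.65 and 0.54. Along the chromosome Ifi208, with a difference of 0.28, lies between Ifi209 and Ifi207, and Ifi202b, with 0.10, between Ifi203 and Ifi205. Ifi207 and Ifi203 follow each other among the genes measured singly. The 7 measured genes with the ISRE letters had differences from 0.28 to 1.65, and the 3 without them, Aim2, Ifi209 and Ifi202b, from 0.10 to 1.25.

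**Figure D3:**
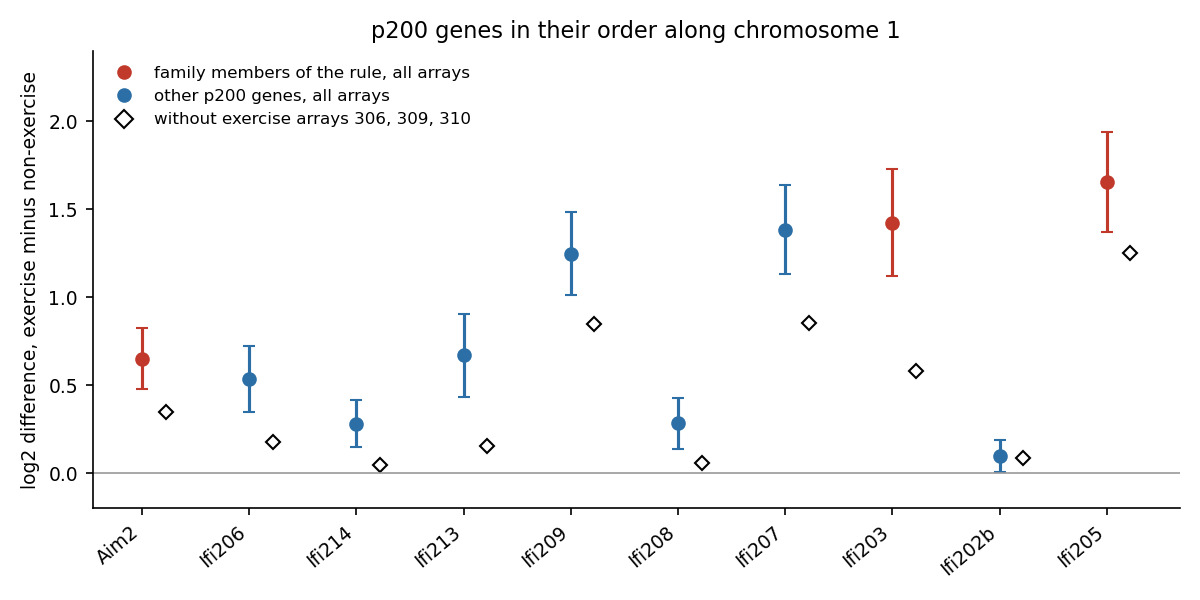
Log2 difference, exercise less non-exercise (vertical axis), of the 10 measured p200 genes in RefSeq order along chromosome 1 (horizontal axis, not to scale), with filled points and SE bars for all 10 arrays and open diamonds without exercise arrays 306, 309 and 310. Ifi205 has the highest filled point (1.65) and the highest diamond (1.25), and Ifi202b the lowest filled point (0.10).

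Genes of the same region of chromosome 1 that are not p200 genes were given for comparison. Among 15 such genes 4 rose and 1 fell, against 6.35% and 10.6% of all genes, and the median difference was 0.19. Tagln2, an actin-binding protein, rose by 1.03 ± 0.15 (limma adjusted p = 0.00058), and Fcgr4, an activating Fc receptor of myeloid cells, by 1.49 ± 0.35 (limma adjusted p = 0.00947). The leukocyte receptor genes Slamf8 (0.91, limma adjusted p = 0.0271) and Slamf9 (0.92, limma adjusted p = 0.0403) rose, and Igsf8, a membrane protein that binds tetraspanins, fell by 0.24 (limma adjusted p = 0.0242). Slamf8 no longer passed with 306, 309, 310, 327, 330 or 331 left out, and Slamf9 with any of these, 326 or 329 left out (highest limma adjusted p 0.0712 and 0.0929). Igsf8 no longer passed with 300, 310, 326, 327, 329 or 330 left out (highest limma adjusted p 0.0642), which took the lower count to 0. The higher count ran from 2 to 6 with single arrays left out, and was 2 with any of those named for Slamf8 left out. Without arrays 306, 309 and 310 it was 1, Tagln2 (0.82), while Fcgr4 (0.58), Slamf8 (0.19) and Slamf9 (0.08) did not pass.

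The inflammasome list, which holds partners of Aim2, sensors of other inflammasomes and antagonists of the cytokines, rose in part. Of 20 measured, 10 rose and none fell, with a median difference of 0.32, against 6.35% higher and 10.6% lower over all genes. Il1rn, whose product blocks the interleukin-1 receptor, rose by 1.74 ± 0.21 (limma adjusted p = 0.000209), and Il1b, the cytokine cut by caspase-1, by 0.97 ± 0.21 (limma adjusted p = 0.00571). Casp1, the protease itself, rose by 0.69 ± 0.18 (limma adjusted p = 0.0166). Gsdmd, which forms the pore of pyroptosis, rose by 0.51 ± 0.16 (limma adjusted p = 0.0408). Pycard, the adaptor between Aim2 and caspase-1, had means of 10.16 ± 0.23 with exercise and 10.16 ± 0.12 without (SD, n = 5 each). Il18, the other cytokine substrate, had a difference of -0.14 ± 0.17 (limma adjusted p = 0.665).

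The other sensors named in this list were Nlrp3 (0.42, limma adjusted p = 0.0234), Mefv, which encodes pyrin (0.33, limma adjusted p = 0.0217), and Naip5, a sensor of flagellin (0.46, limma adjusted p = 0.0233). Gsdmd no longer passed with any array other than 300 and 301 left out (highest limma adjusted p 0.0992). Nlrp3 no longer passed with 327 or 330 left out, Mefv with 300, 326 or 327, and Naip5 with 309, 326 or 330 (highest limma adjusted p 0.064, 0.0626 and 0.064). The count of 10 ran from 4 to 11 with single arrays left out, and was 4 without 327 or 330, 5 without 309 or 326 and 6 without 331. Without arrays 306, 309 and 310 it was 2, Il1rn (1.68) and Il1b (1.25). Casp1 (0.22), Gsdmd (0.06), Nlrp3 (0.38), Mefv (0.35) and Naip5 (0.24) then did not pass, and Il18 fell by 0.61 (limma adjusted p = 0.00421).

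Genes of cytosolic DNA sensing, the pathway of Ifi204 and of Cgas, showed calls of either sign. Among 24 genes 7 rose and 3 fell, against 6.35% higher and 10.6% lower over all genes, so the share that fell was near the background. The median was 0.09. Sting1, the adaptor of the pathway at the endoplasmic reticulum, rose by 0.53 ± 0.10 (limma adjusted p = 0.00353), and Trim56, a ubiquitin ligase, by 0.54 ± 0.08 (limma adjusted p = 0.000558). Samhd1, a nuclease and dNTP hydrolase, rose by 0.61 ± 0.13 (limma adjusted p = 0.0051). Zbp1, a sensor of Z-form nucleic acid, rose by 1.38 ± 0.41 (limma adjusted p = 0.0334), and Irf7, a factor of interferon gene induction, by 0.89 ± 0.29 (limma adjusted p = 0.047). Xrcc6, the Ku70 subunit, fell by 0.29 (limma adjusted p = 0.0121), and Trim32 by 0.37 (limma adjusted p = 0.0163). Cgas, the DNA sensor that makes cGAMP, had a difference of 0.06 ± 0.10 (limma adjusted p = 0.796), and Trex1, the nuclease that clears cytosolic DNA, of 0.04 ± 0.12 (limma adjusted p = 0.900).

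Irf7 and Zbp1 no longer passed with 306, 309, 310, 327, 329, 330 or 331 left out (highest limma adjusted p 0.121 and 0.0772), nor Trim32 with 326 left out (limma adjusted p = 0.051). The higher count was 3 without 309, 310, 329 or 330 and 4 without 306 or 327. The lower count was 1 without 326, and 4 at most. Without arrays 306, 309 and 310 the higher calls were Sting1 (0.26), Trim56 (0.36) and Samhd1 (0.29), and the lower call was Xrcc6 (-0.24). Irf7 (0.30), Zbp1 (0.27) and Trim32 (-0.35) then did not pass.

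Interferon signalling, which induces p200 genes, was measured at its ligands, receptors and factors. In the limma test 0 of 14 interferon genes passed in either direction, with 1 at an unadjusted p under 0.05, and their median was -0.02. The median percentile of mean level of these genes among the genes measured was 19.9, with Ifnb1 at 16.7 and Ifng at 11.5. At such levels the lack of calls does not show that these genes did not change. Ifnb1 had a difference of -0.26 ± 0.10 (limma adjusted p = 0.0954) and passed as lower without exercise array 309 (limma adjusted p = 0.0175). Ifng, interferon gamma, had a difference of 0.23 ± 0.14 (limma adjusted p = 0.296). Of 19 receptor and JAK-STAT genes 6 rose and none fell, with a median of 0.16, against 6.35% and 10.6% of all genes. Ifnar1, a chain of the type I receptor, had a difference of -0.09 (limma adjusted p = 0.429), and Ifngr1, a chain of the interferon gamma receptor, of 0.10 (limma adjusted p = 0.486). Among the factors Stat2 rose by 0.70 ± 0.18 (limma adjusted p = 0.0185), Irf9, its partner, by 0.63 ± 0.17 (limma adjusted p = 0.0218), and Irf5 by 0.95 ± 0.22 (limma adjusted p = 0.00854). Irf8, a factor of myeloid cells, rose by 1.02 ± 0.30 (limma adjusted p = 0.0308). The feedback genes Usp18 and Socs3 rose by 1.03 ± 0.27 (limma adjusted p = 0.019) and 0.35 ± 0.08 (limma adjusted p = 0.00995).

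Irf8 no longer passed with 306, 309, 310, 327, 329, 330 or 331 left out, Irf9 with 309, 310, 327, 329 or 331, and Usp18 with 327 or 330 (highest limma adjusted p 0.0714, 0.056 and 0.0536). The higher count ran from 3, without 327, to 8, and 1 gene was lower without 309 or 331. Without arrays 306, 309 and 310 Irf5 (0.53) was the 1 gene higher and Ifngr2 (-0.19, named after its value was seen) the 1 lower. Irf8 (0.19), Irf9 (0.17), Stat2 (0.20), Usp18 (0.52) and Socs3 (0.25) then did not pass.

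**Figure D4:**
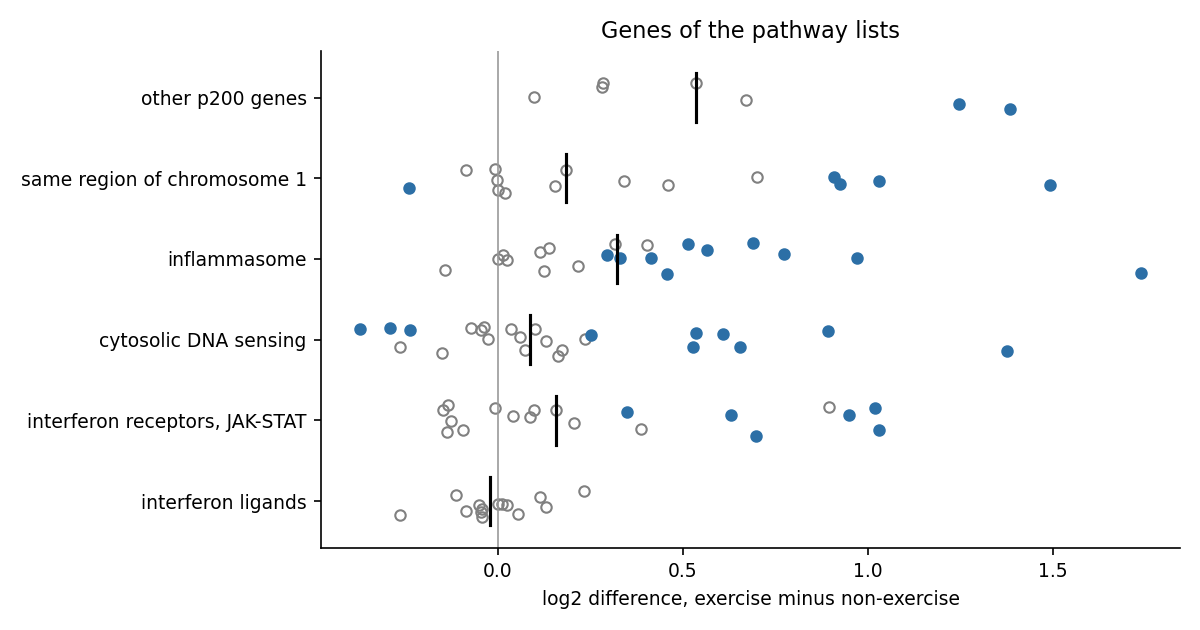
Log2 difference, exercise less non-exercise (horizontal axis), of each measured gene in the 6 gene lists (rows; vertical scatter within a row has no meaning), with filled points for a limma adjusted p under 0.05, open points for genes that did not pass and a bar at the list's median. The 7 other p200 genes all lie above 0 with a median of 0.54, and no interferon ligand is filled.

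The members did not follow each other equally across the tumours. With the group means subtracted, over the same 10 arrays, the Pearson correlation was 0.86 between Ifi205 and Aim2, 0.64 between Ifi203 and Aim2 and 0.55 between Ifi203 and Ifi205. In exercise array 306, Ifi203 was close to its highest level and Ifi205 at its lowest of the exercise group. These values describe 10 arrays that share the same processing, and no test was made.

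The genes whose pattern was most like that of the members were ranked by the Pearson correlation with the mean of the 3 centred members over 10 arrays. The sets of 8 leave out predicted genes, clones, Riken genes, small RNA genes and olfactory receptors. Ranks given for single p200 genes are over all genes. Ifi207 came first of all genes measured, at 0.99, followed by the glutaredoxin gene Glrx, the lectin gene Clec2d, Pik3r5, a regulatory subunit of PI3K gamma, and the antiviral gene Mx1, all at 0.98. Rel, an NF-kB subunit, Trim30d and the leukocyte surface gene Cd52 completed the first 8, all at 0.98. Of the other p200 genes Ifi209 ranked 23rd among all genes at 0.97, Ifi213 had 0.93, Ifi206 0.89, Ifi208 0.78, Ifi214 0.70 and Ifi202b 0.27. With the group means subtracted, the first 8 were Dram2 (0.98), Lrrc25, Ifi207 and Coro2a (0.97 each), and Pqlc3, Frmd4b, Clec2d and Shisa5 (0.96 each), so Ifi207 and Clec2d were in both sets of 8. Ifi202b then had -0.11, Ifi214 0.53 and Ifi213 0.96, and Ifi209 ranked 152nd at 0.89. Without arrays 306, 309 and 310, over 7 arrays, the correlation of Ifi207 was 0.98, or 0.94 with the group means subtracted. Over these 7 arrays, without that subtraction, Ifi209 had 0.94, Ifi213 0.80, Ifi206 0.67, Ifi208 0.31, Ifi202b -0.096 and Ifi214 -0.19.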

How the data were processed

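Per the labels' protocols, RNA of melanoma tumours was amplified and labelled for Affymetrix whole-transcript arrays. Per the submitters' processing notes the authors summarised probe sets with PLIER. The deposited values were taken as log2 from their range of 4.66 to 14.55; the sources used here do not give base, added constant or normalization. Array medians differed by 0.126, over the limit of 0.1, so the table was quantile normalized. The 21789 probe sets with 1 gene symbol gave 19938 genes, each read from its brightest probe set. The comparison used limma 3.58.1 in R 4.3.3 (lmFit, then eBayes with trend), two-sided, with Benjamini-Hochberg adjustment at 0.05 over all genes. The code was tested on simulated data. Members, lists and tests were chosen with earlier results of these data known. Named genes were the members, up to 5 called genes per list with the smallest p, fixed genes and the 8 most correlated. Predicted genes, clones, Riken genes, small RNA genes and olfactory receptors were left out of these 8. Only 3 members were measured singly, so the mean for likeness used these. Motifs were searched in RefSeq promoter windows (GRCm38.p6); protein sequences were not used here. Alternatives were other scalings, filters, variance models, covariates and fewer arrays. Pseudocounts were not applied, since the values are logs. Figures used Python 3.11.15 and matplotlib 3.10.9.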

Additional observations from a re-analysis of the deposited data

Results flagged for a closer look

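Of 88 groups of 5 arrays checked for the genes named, 3 had an array set apart from the other 4 by a gap that is large for the range of the group; chance gives about 1 in 20 groups. Ifi202b was 7.76 in non-exercise array 330 against 7.37 to 7.46 in the others, while array 330 was the lowest of all for Ifi205. Xrcc6 was 10.52 in exercise array 310 against 10.80 to 10.85. Usp18 was 10.49 in non-exercise array 326 against 9.10 to 9.39, and array 326 also had the highest non-exercise level of Ifi203.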

How the results depend on the processing

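The differences of the members stayed positive and past the threshold on the deposited table, after median centring, with the mean of probe sets, with adjustment over all probe sets, without the dimmest genes, with the other variance models and with array weights. Leaving out 1 array gave 1.41 to 1.81 for Ifi205, 1.27 to 1.68 for Ifi203 and 0.52 to 0.80 for Aim2, which did not pass without array 326 (0.63) or 330 (0.60). Without the 3 arrays with hepatocyte transcripts Ifi203 was 0.58, and with the hepatocyte covariate 0.75. With the macrophage covariate Ifi203 was 0.55, Ifi205 0.43 and Aim2 -0.0701, and of the called genes named Slamf8 (-0.043), Slamf9 (-0.11), Naip5 (-0.021), Irf7 (-0.12) and Irf5 (-0.023) changed sign, as did the uncalled p200 genes Ifi206 (-0.20), Ifi213 (-0.29), Ifi208 (-0.072) and Ifi214 (-0.042); the cause was not tested.

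Over all genes 1266 were higher and 2118 lower. The higher genes numbered 746 without the 3 arrays, 588 with the hepatocyte covariate and 41 with the macrophage covariate, where 100 were lower. The higher genes made up 37.4% of the calls, and 23.4% (938 against 3076 lower) after median centring. The other p200 genes called higher numbered 4 on the deposited table, 1 without the dimmest genes, where fewer genes were tested, 0 with the macrophage covariate and 2 to 4 leaving out 1 array. For the genes of the same region the higher calls were 1 with robust variances, without the 3 arrays and with the hepatocyte covariate, and 2 to 6 leaving out 1 array; the lower call was 0 without the trend and 0 to 1 leaving out 1 array. Inflammasome genes higher numbered 2 without the 3 arrays and with the hepatocyte covariate, each with 1 lower, and 4 to 11 leaving out 1 array. For DNA sensing the higher calls were 4 with robust variances, 3 without the 3 arrays, 2 with the hepatocyte covariate and 3 to 7 leaving out 1 array, and the lower calls 1, 0 and 1 to 4 without the 3 arrays, with the hepatocyte covariate and leaving out 1 array. For receptors and JAK-STAT the higher calls were 2 with robust variances, 1 without the 3 arrays, 0 with the hepatocyte covariate and 3 to 8 leaving out 1 array; the lower calls were 1 on the deposited table, with array weights and without the 3 arrays, 2 after median centring, and 0 to 1 leaving out 1 array. For interferon ligands the lower calls were 0 to 1 leaving out 1 array. With the macrophage covariate all these lists had 0 calls in either direction. No paired analysis was possible because the groups share no replicate numbers. The number of arrays limits precision, and the files hold no measure of background for the dim p200 and interferon genes.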
